A study of Equus caballus with 68 samples.

Results

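Cell proliferation genes are described here in bone marrow mononuclear cells (BMNC) of horses, kept in healthy or in inflamed synovial fluid for up to 10 days. The genes were taken from a list of 52 symbols of the DNA replication and cell division machinery, and the rows of the expression table that carried one of these symbols were used. Of the 52, 50 had a row, out of 30371 genes listed, and all 50 passed the filter on low values that left 14570 genes for testing. MKI67 and CCNA2 had no row with their symbol and were not analysed here.

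The cells came from 8 Thoroughbred horses (mares and geldings) aged 3 to 9 years and free of joint disease. They were sampled before culture (0 hours, 8 libraries), and after 48 hours, 96 hours, 6 days and 10 days in the horse's own fluid. Normal synovial fluid (SF) came from healthy joints, and inflamed synovial fluid (ISF) from joints in which a synovitis had been induced by injection of lipopolysaccharide. Each fluid had 7 libraries at the 48 hour and the 10 day points and 8 at the other times. A horse gave a single library for each fluid and time, and the fluid and the kind of joint it came from cannot be told apart. Fresh fluid of the same kind was added during culture, no sorting step preceded RNA extraction, and the libraries hold every cell type left in the well.

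A dividing cell first copies its DNA (S phase) and then separates the copies (mitosis). E2F transcription factors turn on the genes of S phase, among them the MCM helicase that is loaded on the origins of replication, the sliding clamp PCNA and the enzymes that supply nucleotides. FOXM1 and MYBL2 act later and turn on the genes of mitosis, which include cyclin B and its kinase CDK1, the motors of the spindle and the factors that end division. In fresh marrow many blood cell precursors are in cycle, whereas macrophages, the cells that come to dominate these cultures, divide little in most tissues. The 50 genes comprised 16 of S phase, 30 of mitosis and the 4 regulators E2F1, E2F2, FOXM1 and MYBL2.

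Levels are given as GeTMM, a unit in which reads are divided by gene length and scaled for library composition, so that they can be compared between genes. Differences are on the log2(GeTMM + 1) scale. Depth ranged from 15.6 to 35.8 mega-reads (M) on genes per library (median 22.1), and 49 of the 50 genes were above 0 in every library. The SF library of Moon at 6 days stood apart. Its GeTMM summed to 2.32 M against 0.818 to 1.46 M in the other 67 libraries, 12797 genes were above 0 against 14783 to 17365, and it was the only library with a member, ZWILCH, at 0. In a check of which horse each library resembles, 66 of 68 libraries were closest to their own horse, while at 96 hours in ISF the library labelled Dealings was closest to Dreamer and that labelled Dreamer to Dealings. Counts of calls that rest on these libraries are also given without them. The macrophage markers CD68, CD163, MRC1, GPNMB, SPP1, TREM2 and MSR1 were all detected, and their summed level had a median of 212 GeTMM before culture, 64170 in ISF and 45560 in SF at 10 days.

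Fresh BMNC held the replication and division transcripts at high levels. The median over the 8 horses was highest for UBE2C, the ubiquitin conjugating enzyme of mitotic exit, at 278 GeTMM, followed by the nucleotide enzymes TYMS at 134 and TK1 at 126 and by PCNA at 93.1. ASPM, a spindle pole protein, was lowest at 6.71. Over time the mean of the 16 S phase genes went from 5.23 ± 0.29 (SD, n = 8) before culture to 5.09 ± 0.37 (n = 7), 5.13 ± 0.28 (n = 8), 4.97 ± 0.33 (n = 8) and 4.04 ± 0.50 (n = 7) in ISF on the log2 scale. In SF it went to 4.71 ± 0.21, 4.38 ± 0.41, 4.21 ± 0.52 and 4.10 ± 0.50 at the same times. The mean of the 30 mitotic genes was 4.55 ± 0.35 before culture. It then stood at 4.47 ± 0.47, 4.39 ± 0.35, 4.28 ± 0.38 and 2.96 ± 0.72 in ISF and at 4.16 ± 0.28, 3.66 ± 0.46, 3.36 ± 0.66 and 3.07 ± 0.64 in SF. In ISF both means stayed within 1 SD of fresh cells until 6 days and were lower at 10 days, whereas in SF they were already lower at 48 hours. In bulk samples such as these, fewer cells in cycle and less RNA per cell cannot be told apart.

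**Figure D1:**
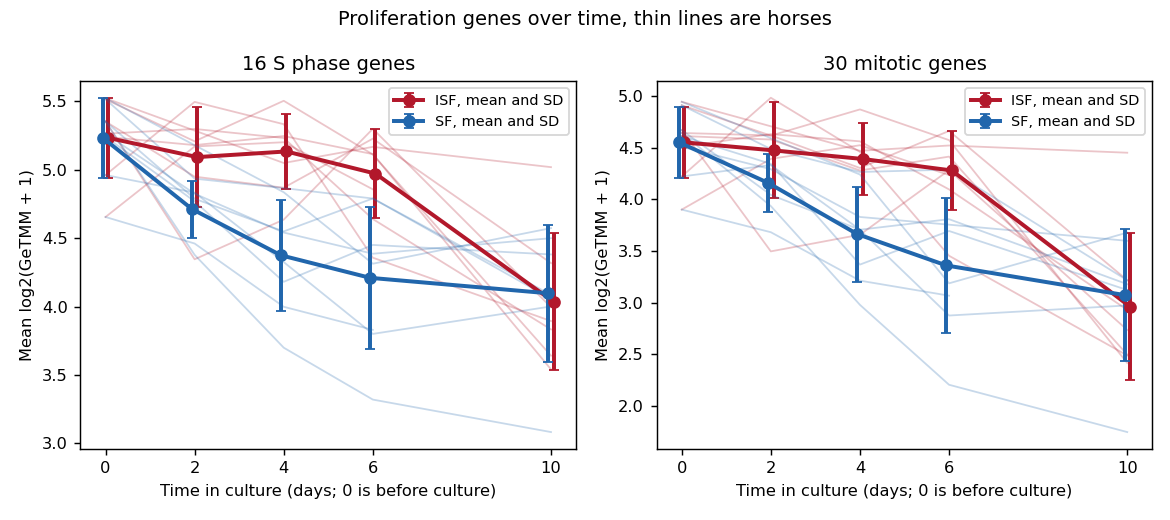
Mean log2(GeTMM + 1) of the 16 S phase genes (left) and the 30 mitotic genes (right) against time in culture in days, with the libraries before culture at 0. Thick lines and bars are the mean and SD of the horses in ISF (red) and SF (blue) and thin lines are single horses: the mitotic mean in ISF stays between 4.28 and 4.47 until 6 days and is 2.96 at 10 days, while in SF it passes through 4.16, 3.66 and 3.36 to 3.07.

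As a share of the level before culture, the median over the 50 genes in ISF was 96.9%, 89.3%, 83.2% and 27.2% at the 4 times in turn. The same medians in SF were 72.8%, 48.8%, 42% and 36.3%. The spread between genes was wide. At 10 days in ISF the share ranged from 7.79% for ESPL1, the separase that cuts the ties between sister chromatids, to 97% for CCNE2, a cyclin of S phase entry, and AURKA, a kinase of the spindle poles. Among the 16 S phase genes the median at 10 days was 36.5% in ISF and 43.3% in SF, and among the 30 mitotic genes it was 24.4% in ISF and 32.8% in SF. The regulators were at 10.9% in ISF and 21.8% in SF.

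**Figure D2:**
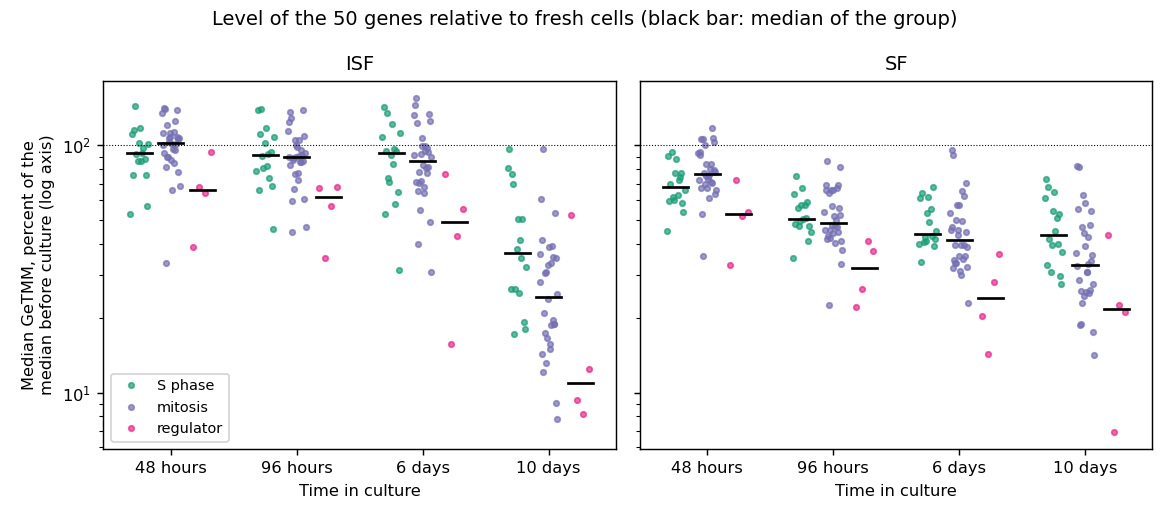
Level of each of the 50 genes at each time in ISF (left) and SF (right) as a percent of its level before culture (ratio of group medians, log axis). Points are genes coloured as S phase, mitosis or regulator, and black bars are medians: in ISF the S phase and mitotic medians lie between 86.1% and 102% until 6 days and at 36.5% and 24.4% at 10 days.

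The index genes of both phases showed these courses gene by gene, with medians given for the 4 times in culture in order. TOP2A had a median of 46.5 GeTMM before culture (33.9 to 61.4), of 56.1, 41.4, 32.8 and 8.1 in ISF and of 49.2, 29.8, 18.3 and 12.0 in SF. CDK1 had a median of 32.4 GeTMM before culture (14.0 to 54.3), of 36.2, 40.1, 47.0 and 19.6 in ISF and of 29.6, 21.3, 31.0 and 26.7 in SF. CCNB1 had a median of 34.9 GeTMM before culture (23.7 to 48.4), of 47.2, 39.8, 46.3 and 9.8 in ISF and of 32.5, 18.7, 18.6 and 12.7 in SF. The mitotic genes TOP2A and CCNB1 were lowest at 10 days in both fluids, and CDK1 only in ISF. PCNA had a median of 93.1 GeTMM before culture (60.5 to 127), of 81.9, 87.3, 88.5 and 46.7 in ISF and of 71.7, 54.8, 63.2 and 49.1 in SF. MCM5 had a median of 70.6 GeTMM before culture (47.8 to 87.1), of 60.7, 58.4, 59.1 and 17.8 in ISF and of 44.4, 35.5, 34.5 and 31.7 in SF. Of this pair MCM5 lost the larger share. RRM2 had a median of 75.4 GeTMM before culture (40.1 to 92.1), of 57.1, 51.8, 48.9 and 14.6 in ISF and of 44.0, 30.8, 29.6 and 22.2 in SF. TYMS had a median of 134 GeTMM before culture (74.5 to 149), of 75.8, 61.3, 41.8 and 24.3 in ISF and of 72.1, 62.9, 55.8 and 36.9 in SF. TYMS alone had a lower median in ISF than in SF from 96 hours onwards. At 96 hours its medians were close, and its log2 fold change was above 0.

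S phase and mitotic genes did not keep a fixed distance. The S phase mean lay above the mitotic mean by 0.68 ± 0.07 (SD, n = 8) on the log2 scale before culture, by 0.69 ± 0.18 (n = 8) at 6 days in ISF and by 1.07 ± 0.28 (n = 7) at 10 days in ISF. In SF the distance was 0.56 ± 0.15 (n = 7), 0.71 ± 0.10 (n = 8), 0.85 ± 0.23 (n = 8) and 1.03 ± 0.20 (n = 7) from the earliest to the last time in culture. From 0 hours to 10 days it widened in 6 of 7 horses in ISF and in 7 of 7 in SF, so that the mitotic genes lost more than the S phase genes in both fluids. Between the fluids of a horse the distance in ISF minus that in SF had a median of 0.104 at 48 hours (higher in 5 of 7 horses), 0.0086 at 96 hours (4 of 8), -0.072 at 6 days (2 of 8) and 0.00090 at 10 days (4 of 7). At 10 days the single horses ranged from -0.33 to 0.38, so that the median near 0 covers differences of both signs. These means are descriptions and were not tested.

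The difference between the fluids was asked gene by gene at each time point. At 48 hours none of the 50 genes was called at an FDR under 0.05 with limma, where 1.68% of all genes tested were called in either direction. Without adjustment 3 of the 50 had a p under 0.05, limma-voom on the recovered reads called 0, and with the horse as a paired term AURKA alone passed (FDR 0.0478). The count was 1 without Moon and 1 without the SF library of that horse at 6 days. Levels in ISF were nonetheless above those in SF for 48 of 50 genes, with a median log2 fold change of 0.33 against -0.016 over all genes. CDC25A, a phosphatase that frees the S phase kinases, was nearest to the threshold (log2 fold change 0.58, FDR 0.115).

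At 96 hours 23 of the 50 genes were higher in ISF and none was lower, a share to be read against 6.16% of all genes called higher. The median log2 fold change was 0.76 and all 50 were above 0. The calls comprised 12 of 16 S phase genes, 10 of 30 mitotic genes and E2F1. At 6 days 34 of 50 were higher in ISF and none was lower, against 16.7% of all genes called higher, with a median log2 fold change of 0.82 and 49 of 50 above 0. These calls comprised 11 of 16 S phase genes, 22 of 30 mitotic genes and E2F1. The count at 96 hours moved both ways with the libraries and the fit. It was 12 with both 96 hour ISF libraries of doubtful horse (Dealings, Dreamer) left out, 11 without Dreamer, 10 without Flash, 12 without Ollie and 15 without Lurie, and it was 33 without Moon, 31 with the horse as a paired term, 35 when the fit held these groups alone and 41 with library weights. The paired term raised the mitotic calls at 96 hours from 10 to 17. This term, here and for single genes below, followed the horse labels as given. At 96 hours these are in doubt for the ISF libraries of Dealings and Dreamer, and no paired fit was made without both. At 6 days the count was 26 to 35 without any 1 horse and 37 with the SF library of Moon left out. The comparisons at the 4 times use different libraries, but all come from the same 8 horses.

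**Figure D3:**
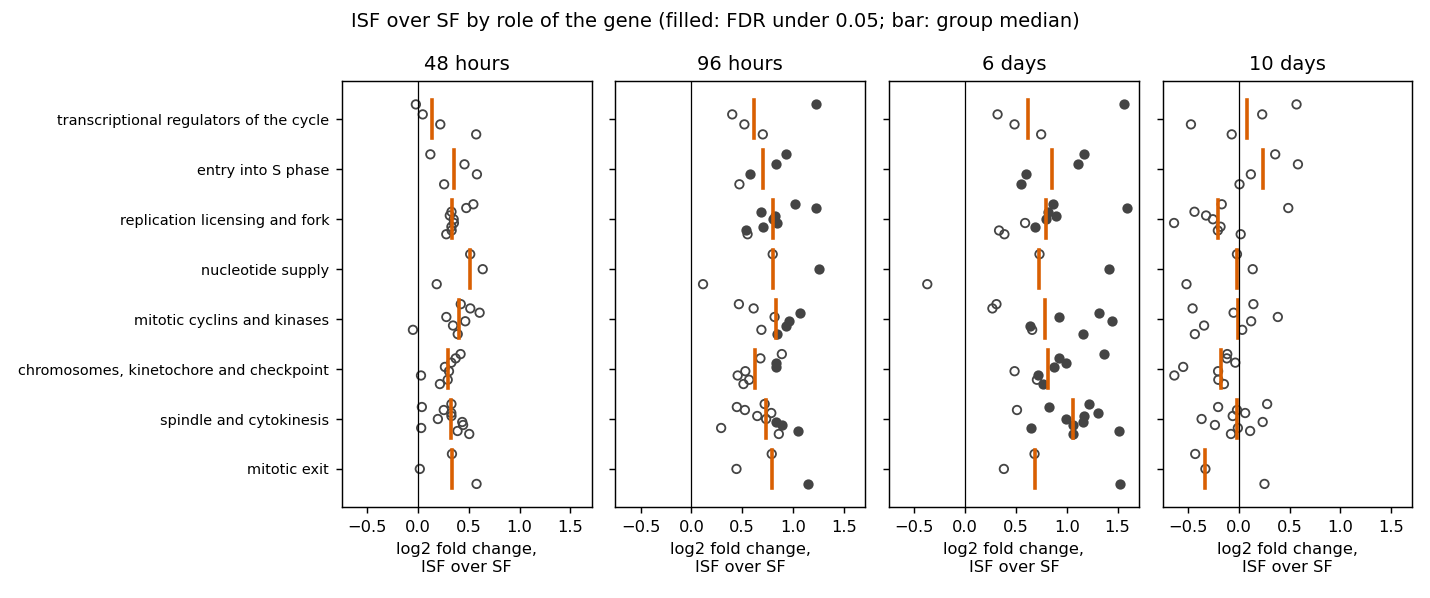
Log2 fold change of ISF over SF on the log2(GeTMM + 1) scale for the 50 genes grouped by role, with 1 panel for each time in culture. Points are genes (filled where the FDR is under 0.05) and the bar is the median of the role: 0, 23, 34 and 0 points are filled from left to right.

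With both doubtful ISF libraries left out, the 12 genes called at 96 hours were all among the 23. E2F1 (log2 fold change 1.19, FDR 0.00674), CCNE1 (0.85, FDR 0.00278), CDC6 (1.20, FDR 0.00136), TK1 (1.24, FDR 0.0137) and CDK1 (0.87, FDR 0.0243) were higher in ISF in 6 of the 6 horses that remained. UBE2C was no longer called (1.08, FDR 0.0511). With the SF library of Moon at 6 days left out, 30 of the 34 genes called at that time were called again, the others being CDK2, CENPF, ZWILCH and NUSAP1.

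Markers of other cell types differed between the fluids at the same times. At 96 hours the summed neutrophil precursor markers had medians of 1926 GeTMM in ISF and 2753 in SF, the T cell markers of 45.1 and 90.1 and the B or plasma cell markers of 201 and 436. At 6 days these medians were 192 and 1613, 32.4 and 129, and 150.4 and 496, and those of the progenitor markers 8.62 and 14.1. All of these lists were lower in ISF by their medians, with overlapping ranges. The summed macrophage markers at 6 days had medians of 58760 in ISF (14661 to 100400) and 37450 in SF (20627 to 99905). This sum was higher in ISF in Dreamer, Lurie, Moon and Ollie and lower in Catnip, Dealings, Flash and RimRun. A sum is carried by the most abundant markers. The mean log2(GeTMM + 1) of the same markers was 10.87 ± 0.28 (SD, n = 8) in ISF and 10.50 ± 0.16 (n = 8) in SF. By that mean ISF was higher in every horse but Dealings (10.69 against 10.75). The part of these cell types in the difference of the 50 genes between the fluids was not tested.

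Among the regulators E2F1, which starts the S phase programme, was the gene that separated the fluids. E2F1 was at 5.90, 8.90 and 13.9 GeTMM (lowest, median and highest of 8 horses) in ISF at 96 hours and at 1.91, 2.95 and 5.02 in SF. At 6 days it was at 7.66, 10.1 and 20.8 in ISF and at 1.64, 2.71 and 9.13 in SF. The ranges did not overlap at 96 hours and overlapped at 6 days only through RimRun, whose SF culture held 9.13, and E2F1 was higher in ISF in 8 of 8 horses at both times. The log2 fold change was 1.23 ± 0.27 (SE, FDR 0.00121) at 96 hours and 1.57 ± 0.27 (FDR 8.34e-06) at 6 days. FOXM1, MYBL2 and E2F2 were not called at either time, with log2 fold changes of 0.52, 0.70 and 0.40 at 96 hours and of 0.49, 0.75 and 0.32 at 6 days. At 6 days MYBL2 passed only with the paired term (FDR 0.0302 against 0.0596 without it).

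Entry into S phase is driven by cyclin E, encoded by CCNE1 and CCNE2, with its kinase CDK2. Of the 4 genes of this role, 3 were called at 96 hours and all at 6 days. CCNE1 ranged over 5.45, 7.84 and 12.6 GeTMM in ISF and over 3.01, 3.50 and 5.93 in SF at 96 hours, and over 8.17, 10.8 and 14.2 in ISF and 3.27, 3.99 and 6.10 in SF at 6 days. At 6 days every ISF culture was above every SF culture. The log2 fold change of CCNE1 was 0.93 ± 0.18 (SE, FDR 0.00022) at 96 hours and 1.17 ± 0.18 (FDR 7.99e-07) at 6 days, with 8 of 8 horses higher at both. CCNE2 followed at 6 days with 1.11 ± 0.27 (FDR 0.000984).

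For the 9 genes of replication licensing and the fork there were 8 calls at 96 hours and 6 at 6 days. The largest difference was that of CDC6, which loads the MCM helicase. CDC6 was at 11.4, 15.3 and 19.6 GeTMM in ISF and at 3.42, 6.12 and 9.77 in SF at 96 hours, and at 10.2, 14.8 and 25.8 in ISF and 1.93, 4.46 and 8.35 in SF at 6 days. The groups did not overlap at either time. Its log2 fold change was 1.23 ± 0.24 (SE, FDR 0.000194) and then 1.60 ± 0.24 (FDR 3.08e-07), higher in 8 of 8 horses both times. CDC45, a helicase partner at the fork, was higher by 1.02 ± 0.29 (FDR 0.0136) at 96 hours, although its FDR reached 0.0519 among the alternatives. MCM5, a helicase subunit, was higher at 96 hours (0.84 ± 0.24, FDR 0.0177), a call lost without Dreamer, Flash or Ollie (FDR 0.0927, 0.0647 and 0.0824) and with both doubtful ISF libraries left out (FDR 0.0532). MCM5 was not called at 6 days (0.59 ± 0.24, FDR 0.0593), where the SF library of Moon held 136 GeTMM against 17.9 to 56.5 in the other 7 SF cultures. PCNA was not called at 96 hours (0.55 ± 0.20, FDR 0.0591) or at 6 days (0.39 ± 0.20, FDR 0.134), and the same SF library held its highest value, 123 GeTMM. At 96 hours PCNA passed with the paired term (FDR 0.0203), which made all 9 genes of the role called. With the SF library of Moon left out both passed at 6 days, MCM5 with an FDR of 0.00136 and PCNA with an FDR of 0.025.

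The 3 nucleotide enzymes went separate ways. TK1, the thymidine kinase that salvages thymidine, was at 113, 136 and 179 GeTMM in ISF and at 33.0, 55.8 and 95.5 in SF at 96 hours, without overlap. TK1 was at 71.3, 141 and 168 in ISF and at 15.6, 56.4 and 96.0 in SF at 6 days, and was higher in ISF in 8 of 8 horses at both times by 1.26 ± 0.30 (SE, FDR 0.00335) and 1.42 ± 0.30 (FDR 0.000236). RRM2, a subunit of ribonucleotide reductase, was not called (0.80 ± 0.35, FDR 0.142 at 96 hours and 0.73 ± 0.35, FDR 0.111 at 6 days). TYMS, which makes thymidylate anew, had 96 hour medians of 61.3 in ISF against 62.9 in SF, with a log2 fold change above 0. Its 6 day medians were 41.8 against 55.8. The 6 day groups of TYMS overlapped widely and its log2 fold change of -0.37 ± 0.26 (FDR 0.286) was the only negative value among the 50 genes at that time.

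Among the mitotic cyclins and kinases the calls numbered 4 of 8 at 96 hours and 5 at 6 days. CCNB1 (cyclin B) was at 22.9, 39.8 and 58.9 GeTMM in ISF and at 10.6, 18.7 and 30.5 in SF at 96 hours, and at 20.2, 46.3 and 54.3 in ISF and 4.02, 18.6 and 45.7 in SF at 6 days. The groups overlapped, but within horses ISF was higher in 8 of 8 at both times. Its log2 fold change was 1.07 ± 0.32 (SE, FDR 0.0208) at 96 hours and 1.32 ± 0.32 (FDR 0.000998) at 6 days. The call at 96 hours was lost without Dreamer, Flash, Lurie or Ollie and with both doubtful ISF libraries (Dealings, Dreamer) left out (FDR 0.0519, 0.0886, 0.0593, 0.0731 and 0.0584). CDK1, the kinase that cyclin B activates, was higher by 0.93 ± 0.23 (FDR 0.00434) and 0.64 ± 0.23 (FDR 0.0303), and at 6 days the call was lost without Catnip, Dealings or Ollie (FDR 0.0618, 0.106 and 0.0821). CDC25C, the phosphatase that switches CDK1 on, was at 4.36, 10.6 and 17.9 in ISF and 0.940, 3.18 and 6.12 in SF at 6 days, a difference of 1.44 ± 0.25 (FDR 5.42e-06). AURKB and CDKN3 were called at neither time, with or without the paired term, and AURKA only with it (FDR 0.00529 at 96 hours and 0.0423 at 6 days).

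For chromosomes, kinetochores and the spindle checkpoint the calls went from 2 of 8 genes at 96 hours to 6 at 6 days, and for the spindle and cytokinesis from 3 of 11 to 10. Over all genes the share called higher went from 6.16% to 16.7%. For none of the 30 mitotic genes was a change of the ISF minus SF difference between these times called (limma, 0 with an unadjusted p under 0.05). PRC1, which bundles the microtubules of the central spindle, was at 20.4, 46.2 and 51.0 GeTMM in ISF and at 5.22, 16.4 and 28.4 in SF at 6 days, with 8 of 8 horses higher in ISF (1.51 ± 0.31, SE, FDR 0.000142). BIRC5 (survivin), a chromosomal passenger, was higher by 1.36 ± 0.31 (FDR 0.000458). TOP2A, the topoisomerase that untangles chromosomes, was at 25.8, 41.4 and 63.2 in ISF and 12.5, 29.8 and 55.6 in SF at 96 hours, and at 13.2, 32.8 and 43.2 in ISF and 4.39, 18.3 and 56.0 in SF at 6 days. The groups of TOP2A overlapped at both times and it was not called (0.57 ± 0.33, FDR 0.291 and 0.71 ± 0.33, FDR 0.0929). TOP2A passed at 6 days with the paired term (FDR 0.0449) and without Catnip (FDR 0.0411). Of the 3 genes of mitotic exit UBE2C was called without the paired term, at 96 hours by 1.15 ± 0.32 (FDR 0.013, up to 0.0667 among the alternatives) and at 6 days by 1.52 ± 0.32 (FDR 0.00018). UBE2C was at 132, 248 and 318 in ISF and at 19.4, 108 and 170.2 in SF at 6 days, with 8 of 8 horses higher in ISF and an overlap from 132 to 170.2. CDC20 was called only with the paired term (FDR 0.039 at 96 hours and 0.0462 at 6 days), and ESPL1 at neither time with or without it.

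**Figure D4:**
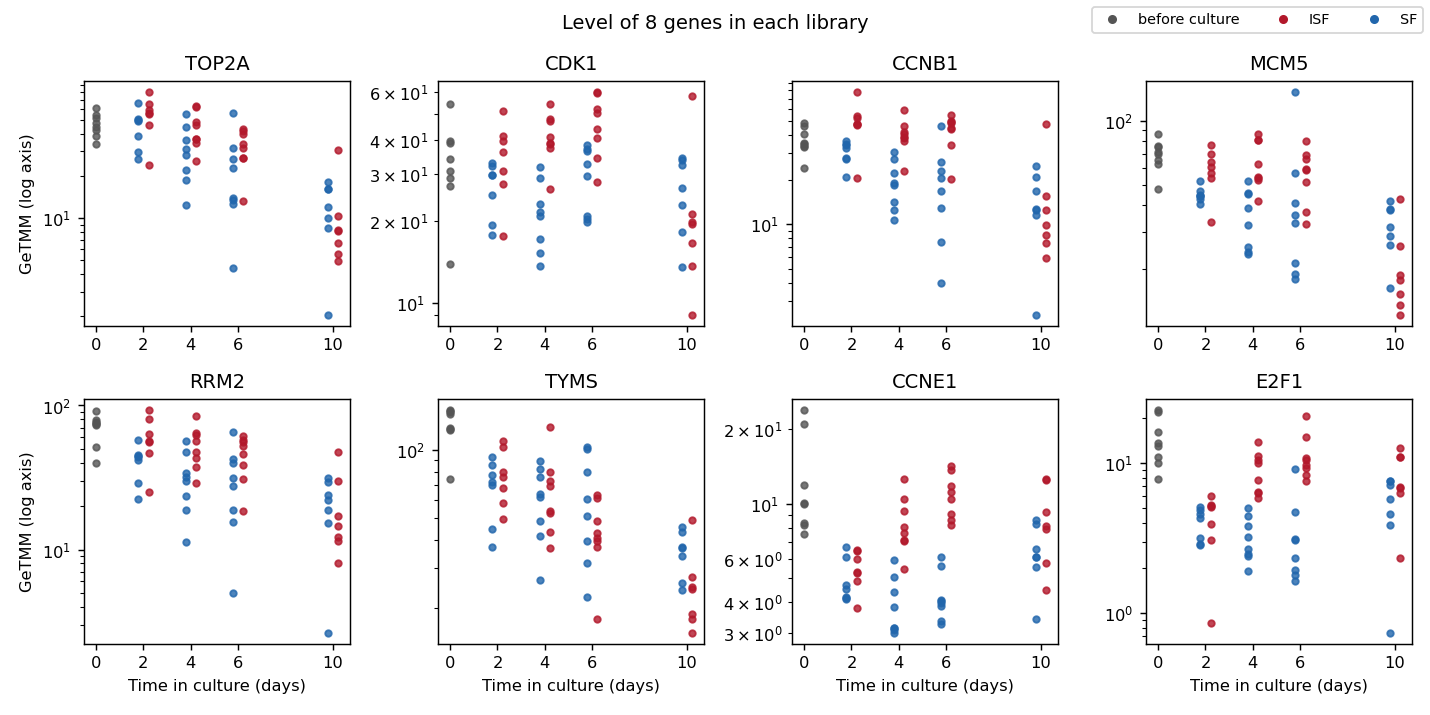
GeTMM (log axis) of TOP2A, CDK1, CCNB1, MCM5, RRM2, TYMS, CCNE1 and E2F1 in each library against time in culture in days, with cells before culture in grey, ISF in red and SF in blue, and each point 1 horse. E2F1 and CCNE1 separate the fluids at 96 hours and 6 days but for a few libraries, TYMS does not, and single points stand off at 10 days, such as the ISF culture with 30.7 GeTMM of TOP2A, and at 6 days, such as the SF culture with 136 GeTMM of MCM5.

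Fewer of the genes moved between time points within a fluid until 6 days. From 0 to 48 hours in ISF 6 of 50 were called, against 52.7% of all genes called in either direction. E2F1 fell from a median of 13.3 to 5.13 GeTMM (-1.60 ± 0.28, SE, FDR 2.29e-06), CDKN3, a phosphatase that restrains CDK1, from 11.5 to 3.84 (-1.34 ± 0.35, FDR 0.00103), and CCNE1 from 10.0 to 5.30 (-0.98 ± 0.19, FDR 1.06e-05), each in 7 of 7 horses. TYMS (-0.75 ± 0.27, FDR 0.0146) and ESPL1 (-0.66 ± 0.23, FDR 0.0131) fell also, and AURKA rose by 0.50 ± 0.18 (FDR 0.0192) in 7 of 7 horses. From 48 to 96 hours 3 of 50 were called, against 19% of all genes in either direction. E2F1 (1.00 ± 0.28, FDR 0.00745) and CCNE1 (0.53 ± 0.19, FDR 0.0341) rose in 7 of 7 horses, against the direction of their earlier change, and E2F2 fell in 7 of 7 (-1.08 ± 0.28, FDR 0.0042). From 96 hours to 6 days E2F2 alone was called (-0.90 ± 0.28, FDR 0.0337, 8 of 8 horses), against 6.38% of all genes in either direction, and that call was lost without any 1 of Catnip, Dealings, Flash, Lurie, Ollie or RimRun. With both doubtful ISF libraries left out, E2F1 (0.96, FDR 0.0251) still rose and E2F2 (-0.93, FDR 0.0281) still fell from 48 to 96 hours, in 5 of 5 horses each, CCNE1 was no longer called (0.46, FDR 0.127), and E2F2 fell from 96 hours to 6 days (-1.05, FDR 0.0179, 6 of 6 horses).

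From 6 to 10 days in ISF the machinery fell as a whole. All 50 fold changes were below 0, 44 genes were called lower against 5.44% of all genes called lower, and the median log2 fold change was -1.21 against 0.0019 over all genes. The calls comprised 13 of 16 S phase genes, 28 of 30 mitotic genes and 3 of 4 regulators, and every gene of the licensing and fork, nucleotide, chromosome, spindle and mitotic exit roles was among them. The 6 genes not called were E2F1, CCNE1, CCNE2, CDC25A, AURKA and CCNB2. PLK1, a kinase needed for the entry into mitosis, went from a median of 20.5 to 4.13 GeTMM (-1.77 ± 0.28, SE, FDR 1.1e-05) and CDC20, the activator of mitotic exit, from 19.0 to 3.53 (-1.75 ± 0.34, FDR 0.000254). CCNB1 went from 46.3 to 9.80 (-1.70 ± 0.33, FDR 0.000233) and TOP2A from 32.8 to 8.10 (-1.68 ± 0.34, FDR 0.00037). Each of these 4 was lower in 7 of 7 horses.

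Among the S phase genes TK1 fell by 1.58, CDC45 by 1.47 and MCM5 by 1.47 on the log2 scale in ISF over the same interval (FDR 0.000363, 0.000391 and 4.53e-05). MCM5 went from 32.6, 59.1 and 80.2 GeTMM at 6 days to 12.2, 17.8 and 42.9 at 10 days. RRM2 (-1.26 ± 0.37, FDR 0.0151), CDK1 (-1.16 ± 0.24, FDR 0.000515), TYMS (-0.77 ± 0.27, FDR 0.048) and PCNA (-0.64 ± 0.20, FDR 0.0318) were also lower in 7 of 7 horses. MYBL2 (-1.48 ± 0.32, FDR 0.000949) and FOXM1 (-1.34 ± 0.29, FDR 0.00108) fell more than E2F2 (-0.89 ± 0.28, FDR 0.0325), a difference between genes that was not tested. The count was 35 to 46 without any 1 horse and 45 without the ISF library of Moon at 10 days. The summed markers of other cell types also moved over the same days in ISF, some medians down and others up. The summed level of the 6 neutrophil precursor markers found of 8 (MPO and ELANE among them) had a range of 2.76 to 2393 GeTMM with a median of 192 at 6 days and of 0.759 to 63.7 with a median of 18.2 at 10 days, and that of the 5 T cell markers had medians of 32.4 and 7.61. Those of the 4 hematopoietic progenitor markers were 8.62 (1.08 to 15.2) at 6 days and 16.7 (1.92 to 30.8) at 10 days. Those of the erythroid markers were 0.841 (0.285 to 1.41) and 1.06 (0.590 to 1.32), near the floor. For both lists the ranges overlapped. The medians of their mean log2 levels were close, at 1.14 and 1.29 for progenitor and 0.253 and 0.310 for erythroid markers. No neutrophil precursor, T cell or progenitor marker was at 0 in every library of either group. The erythroid marker ALAS2 was at 0 in every ISF library at 10 days. The part of these cell types in the fall of the 50 genes was not tested.

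In SF the calls were most numerous in the earliest interval, as were those over all genes. From 0 to 48 hours 15 of 50 were lower and none higher, against 23.1% of all genes called lower. E2F1 went from 7.84, 13.3 and 22.5 GeTMM to 2.87, 4.33 and 5.12, without overlap (-1.58 ± 0.28, SE, FDR 3.83e-06), CDKN3 fell by 1.30 (FDR 0.00188) and CCNE1 by 1.10 (FDR 1.42e-06), each in 7 of 7 horses. The others were FOXM1, MYBL2, TYMS, CDC25A, CDK2, MCM2, MCM5, MCM6, AURKB, KIF20A, CDC20 and ESPL1. Without RimRun, 9 genes were called, and 30 when the fit held these libraries alone. With all libraries scaled to an equal sum of GeTMM, which moved the median of all genes in this interval from -0.0085 to 0.17, 5 genes were called and no called gene changed its sign. The erythroid markers, of which 4 of 5 were found, fell from 76.2 to 1230 GeTMM (lowest and highest) before culture to 0.911 to 11.8 in ISF and 0.796 to 27.0 in SF after 48 hours, with no overlap and with none of them at 0 in every library of these groups, and the part of this loss in the early changes was not tested.

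From 48 to 96 hours in SF 4 of 50 were lower, against 15.8% of all genes called lower. E2F2 went from 31.7 to 61.9 GeTMM (lowest and highest) to 6.89 to 27.7, without overlap (-1.43 ± 0.28, SE, FDR 7.44e-05), and CDC6 (-0.68 ± 0.24, FDR 0.0288), MCM7 (-0.53 ± 0.16, FDR 0.00771) and ESPL1 (-0.74 ± 0.23, FDR 0.0118) were lower in 7 of 7 horses too. With the horse as a paired term the count was 13, the added genes being CCNB1, CCNB2, PLK1, BUB1, CENPA, ASPM, CKAP2L, CDC20 and UBE2C. Without Moon 13 genes were called too. In SF no further gene was called from 96 hours to 6 days (limma, 3 with an unadjusted p under 0.05, 0 by limma-voom, 1 with the paired term), where 2.05% of all genes were called in either direction. None was called from 6 to 10 days (7 with an unadjusted p under 0.05, 0 by limma-voom, 3 with the paired term, namely E2F2, TYMS and AURKB, and 1 without Dealings), where the share of all genes was 4.78% in either direction.

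Whether the distance between the fluids itself changed was tested with an interaction term. From 48 to 96 hours the distance widened for 48 of 50 genes (median 0.41) without any call (limma, 3 with an unadjusted p under 0.05, 0 by limma-voom), where 0.0206% of all genes were called in either direction. From 96 hours to 6 days no gene of the 50 was called (0 with an unadjusted p under 0.05, 0 by limma-voom), and the share of all genes was 0%. From 6 to 10 days the ISF minus SF difference moved downwards for 50 of 50 genes with a median of -0.99. TYMS was already lower in ISF at 6 days (-0.37) and moved further from SF (-0.51 at 10 days). Of the 50, 34 had an unadjusted p under 0.05, and 4 were called against 0.226% of all genes called in either direction. The 4 were MCM2 (-1.25 ± 0.29, SE, FDR 0.0389), MCM3 (-1.22 ± 0.28, FDR 0.0309) and MCM4 (-1.05 ± 0.25, FDR 0.0493) of the helicase and CENPA (-1.42 ± 0.32, FDR 0.0309), the histone that marks centromeres. MCM2 was at 18.7, 27.8 and 38.5 GeTMM in ISF and 8.35, 16.1 and 27.5 in SF at 6 days, and at 5.76, 10.2 and 22.4 in ISF and 7.91, 15.5 and 19.1 in SF at 10 days, so that the order of the medians turned. These calls were sensitive to the libraries used. There were 0 with limma-voom, 0 without Catnip, Dreamer, Flash, Lurie or Ollie and 1 without Dealings, but 11 with the paired term, 12 without Moon and 18 without the ISF library of Moon at 10 days.

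At 10 days none of the 50 genes was called between the fluids (limma, 5 with an unadjusted p under 0.05, 0 by limma-voom), although 20.8% of all genes were called in either direction. The median log2 fold change was -0.072, with 32 genes below 0. With the paired term MCM5 (-0.63 ± 0.26, SE without that term, FDR 0.0399 with it and 0.0753 without) and CENPA (-0.55 ± 0.24, FDR 0.0444 and 0.0931) passed. The count was 3 without Moon, 2 without Dealings, 2 with the 6 day SF library of Moon left out and 5 with its 10 day ISF library left out, all lower in ISF.

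The horses were far from alike at 10 days. In Catnip 45 of the 50 genes were lower in ISF than in SF, in Dreamer 43, in Lurie 47, in Ollie 46 and in RimRun 37. In Dealings, by contrast, 48 of 50 were higher in ISF and in Moon 49. The median log2 difference per horse was -0.74 in Catnip, -0.38 in Dreamer, -0.70 in Lurie, -0.67 in Ollie and -0.32 in RimRun, against 1.52 in Dealings and 0.62 in Moon. All 50 genes come from the same pair of libraries in each horse, so that a count over genes describes that pair of cultures.

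The 2 horses differed in which culture stood out. In Moon the ISF culture was high. Its mitotic mean was 4.45 against 2.42 to 3.22 in the other 6 ISF cultures, with TOP2A at 30.7 GeTMM against 4.95 to 10.4, CDK1 at 58.0 against 9.05 to 21.3 and CCNB1 at 47.5 against 5.86 to 15.4. From 6 to 10 days the mitotic mean of Moon in ISF moved by -0.070, against -0.96 to -2.16 in the other 6 horses, and 32 of 50 genes were lower at 10 days against 48 to 50. In Dealings the SF culture was low, with a mitotic mean of 1.75 against 2.97 to 3.68 in the other 6 SF cultures, TOP2A at 2.06 against 8.57 to 18.0 and RRM2 at 2.65 against 15.4 to 31.5. CDKN3 in that SF culture rested on 1 read.

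**Figure D5:**
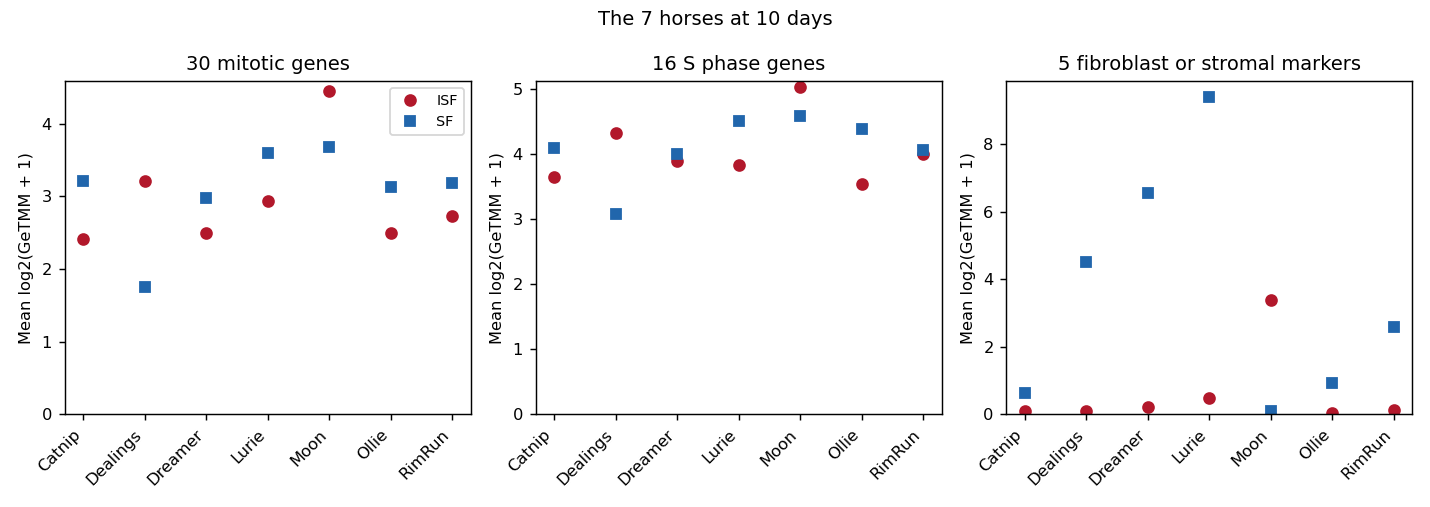
Mean log2(GeTMM + 1) at 10 days in each of the 7 horses for the 30 mitotic genes (left), the 16 S phase genes (middle) and 5 fibroblast or stromal markers (right), with ISF as red circles and SF as blue squares. The mitotic mean is higher in ISF in Dealings (3.22 against 1.75) and Moon (4.45 against 3.68) and lower in the other 5 horses.

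Fibroblast or stromal markers (COL1A1, COL1A2, COL3A1, DCN and LUM) also differed between these cultures. Their mean was 3.38 on the log2 scale in the ISF culture of Moon against 0.0348 to 0.471 in the other 6 ISF cultures. In SF it was 9.39 in Lurie, 6.53 in Dreamer, 4.52 in Dealings and 2.59 in RimRun, and 0.104 to 0.925 in Moon, Catnip and Ollie. In SF Moon had the highest mitotic mean (3.68) with the lowest stromal mean (0.104). Lurie had the next highest mitotic mean with the highest stromal mean (9.39), and Dealings the lowest mitotic mean (1.75) with a stromal mean of 4.52. The relation of the stromal mean to the mitotic mean was not tested. The summed T cell markers were 4.33 to 14.8 GeTMM in ISF and 23.5 to 199 in SF at 10 days, and the neutrophil precursor markers 0.759 to 63.7 in ISF and 2.15 to 1648 in SF. Hematopoietic progenitor markers (4 of 4 found) had medians of 16.7 in ISF (1.92 to 30.8) and 8.65 in SF (5.21 to 21.9). The medians of their mean log2 level were 1.29 in ISF and 1.31 in SF. B or plasma cell markers (5 of 6 found) had medians of 132 in ISF (55.5 to 175) and 289 in SF (135 to 1160). The part of these cells in the differences of the 50 genes between horses or fluids was not tested.

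Most of the genes moved as a single block over the 68 libraries. The Pearson correlation of a gene with the mean of the other 49 had a median of 0.931, and 39 of 50 genes were at or above 0.8, with the highest value for TPX2, a spindle assembly factor, at 0.988. The points share horses, fluids and scaling factors, so that these values are a description. CCNE1 (0.475), AURKA (0.538) and E2F1 (0.575) were lowest. These 3 kept a larger share of their fresh level at 10 days in ISF than the median gene, with 81% for CCNE1, 97% for AURKA and 52.3% for E2F1, against 27.2%. The trait was not theirs alone, as CCNE2 (97%), CDC25A (76.6%) and CDC6 (69.8%) kept more than E2F1. E2F1 and CCNE1 shared a course of their own. Both fell in the first 48 hours in both fluids and rose from 48 to 96 hours in ISF. Neither was called lower from 6 to 10 days in ISF, which held for CCNE2, CDC25A, AURKA and CCNB2 too. With the doubtful libraries left out CCNE1 was still higher at 96 hours in 5 of 5 horses (0.46), but its rise was not called (FDR 0.127). E2F2 fell further instead, from a median of 69.4 GeTMM before culture to 6.49 in ISF and 4.80 in SF at 10 days, with a call at every interval in ISF but the earliest.

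Other genes of the cycle, from lists of replication factors, mitotic factors and G1 genes that hold no member, were counted in the same fits. Over all genes 6.16% were called higher in ISF at 96 hours and 16.7% at 6 days. At 96 hours 10 of 30 further S phase genes and 7 of 40 further mitotic genes were higher in ISF and none lower. At 6 days 14 of 30 and 23 of 40 were higher and 1 S phase gene, DBF4 (-0.38, FDR 0.0172), was lower. CEP55, which acts in the final cut between daughter cells, had the largest difference of these at both times (1.35 ± 0.27, SE, FDR 0.000296 and 1.65 ± 0.27, FDR 2.03e-06). From 6 to 10 days in ISF 16 of 30 and 36 of 40 fell and none rose, against 5.44% of all genes called lower. In SF from 0 to 48 hours 13 of 30 and 12 of 40 fell, against 23.1% of all genes called lower. In that interval 2 of the S phase genes rose. At 48 hours RRM1, the large subunit of ribonucleotide reductase, was higher in ISF (0.57 ± 0.16, FDR 0.0415), and at 10 days POLD1, a replicative polymerase, was lower (-0.69 ± 0.18, FDR 0.00297), as was TACC3 (-0.67 ± 0.22, FDR 0.0257).

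The list of G1 genes, from before S phase, held the cyclins CCND1, CCND2 and CCND3, the kinases CDK4 and CDK6, and MYC. These genes did not share a single course, and values are given for CCND1, CDK6 and CCND3 only. CCND1 (cyclin D1) was higher in ISF at 96 hours (1.02 ± 0.28, SE, FDR 0.0113), at 6 days (1.30 ± 0.28, FDR 0.000258) and at 10 days (1.32 ± 0.30, FDR 0.000852). CDK6 was higher at 6 days (1.41 ± 0.26, FDR 1.96e-05) and 10 days (0.85 ± 0.28, FDR 0.021), and CCND3 was lower at 10 days (-0.71 ± 0.21, FDR 0.0106). From 6 to 10 days in ISF 1 of the 6 G1 genes was called lower, CCND3 (-0.82 ± 0.20, FDR 0.00381), or 2 with the paired term. Of the 6 fold changes 3 were below 0, and none was called higher. Over the same days 44 of the 50 genes of S phase, mitosis and their regulators were called lower, against 5.44% of all genes.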

How the data were processed

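RNA was sequenced from 68 libraries of 8 horses in 9 groups. Per the labels and the study's methods, reads were mapped to EquCab3.0 with STAR 2.7.2a and counted per gene. The deposited table holds the authors' GeTMM values, an RPKM-like unit (reads per kilobase, scaled with TMM factors), with no logarithm. Its rows are Ensembl genes, of which 13157 entries had no symbol, and members were found by symbol. Whole reads were recovered from the steps of the values for 20268 of 20269 genes above 0 in at least 5 libraries (99.9951%, within 0.02 reads), which gave the depth and served an alternative test. Precision near 0 is limited by single reads, and no molecular identifiers are described.

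Values were transformed as log2(GeTMM + 1), which understates the change of low genes. Testing was limited to genes with 0.5 GeTMM or more in 7 or more libraries. All libraries entered 1 fit with 9 groups and no term for horse in limma 3.58.1 (R 4.3.3, eBayes with trend), and FDR values are two-sided limma p-values adjusted after Benjamini-Hochberg over all 14570 genes of a comparison. The study tested counts, whereas the deposited values call for a test on a log scale. Tables and figures were made with Python 3.11.15, pandas 2.3.3, numpy 2.4.6 and matplotlib 3.10.9. The fits and the read recovery were tested on simulated data.

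Libraries of a horse come from the same animal, so they are paired. The correlation between both fluids of a horse, of the deviations from the group means, over genes, was 0.407 to 0.563 at 48 hours, -0.217 to 0.508 at 96 hours (where the labels of Dealings and Dreamer are in doubt), 0.154 to 0.545 at 6 days and 0.0743 to 0.363 at 10 days. Cultures were single wells, so p-values cover the spread between horses and wells together. The members, the lists of roles, further cycle genes and markers were chosen with earlier results of these data known.

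Genes named with values are TOP2A, CDK1, CCNB1, PCNA, MCM5, RRM2 and TYMS throughout and, per comparison, the regulators, up to 3 called S phase and 3 called mitotic members with the largest change, and any called against the majority. Other genes are named where a count was small or they stood out, after their values were seen. The planned search of promoters for motifs was not run, and no sequence or coordinate is given.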

Additional observations from a re-analysis of the deposited data

Results flagged for a closer look

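Of 90 groups of 7 or 8 libraries tested for a single value far from the rest, 12 held such a value, where about 1 in 20 would by chance, and the values of different genes in 1 library are not independent. 6 of them concern the ISF culture of Moon at 10 days, which was highest for TOP2A (30.66 GeTMM), CDK1 (57.98), CCNB1 (47.48), PCNA (94.04) and TYMS (48.82) and for the mitotic mean (4.45 on the log2 scale). The SF culture of Dealings at 10 days was lowest for the S phase mean (3.083) and the mitotic mean (1.746). The mitotic mean was also far below the group in the ISF cultures of RimRun at 48 hours (3.495) and of Dreamer at 6 days (3.453). TYMS was low before culture in Flash (74.5 GeTMM), and MCM5 was high in the SF culture of Moon at 6 days (136.4 GeTMM).

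The difference between ISF and SF changed from 6 to 10 days, by the interaction term, for MCM2 (-1.25 on the log2 scale), MCM3 (-1.22), MCM4 (-1.05) and CENPA (-1.42).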

How the results depend on the processing

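The counts of members called in 15 comparisons were recomputed under 270 alternatives in all, of which 216 stayed within 1.5 times the reported count, 30 were higher and 24 lower. The 216 include counts that stayed at 0 in comparisons with a reported count of 0. No called member changed sign under any alternative. The alternatives chosen after seeing the data were limma-voom on the recovered reads, weights per library, scaling to an equal sum of GeTMM and leaving out doubted libraries. The cause of a change was not tested. Settings with fewer libraries have less power by construction, and their counts lay both above and below those reported.

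With the horse as a replicate block the count was 1 at 48 hours and 2 at 10 days between the fluids (both 0 without it), 2 from 96 hours to 6 days in ISF, 13, 1 and 3 over the last 3 intervals in SF, and 11 for the change of the difference from 6 to 10 days. The block moved no other count beyond 1.5 times. It followed the horse labels as given, including those in doubt at 96 hours in ISF (Dealings, Dreamer). In fits of only the groups compared the count was 35 between the fluids at 96 hours, 2 from 96 hours to 6 days in ISF, 30 and then 15 over the first 2 intervals in SF, and 0 for the last change of the difference. Without a filter it was 0 from 96 hours to 6 days in ISF and 2 for the last change of the difference, which was 0 with limma-voom. With library weights the counts were 3 at 48 hours, 41 at 96 hours and 3 at 10 days between the fluids, 3 from 96 hours to 6 days in ISF, 18 from 48 to 96 hours and 1 from 6 to 10 days in SF, and 15 for the last change of the difference. With that scaling they were 14 at 96 hours, 4 at 10 days, 5 from 0 to 48 hours in SF and 1 from 6 to 10 days in SF. With the 6 day SF library of Moon left out they were 1 at 48 hours and 2 at 10 days. They were 12 at 96 hours with both doubtful ISF libraries (Dealings, Dreamer) left out, and with the 10 day ISF library of Moon left out 5 at 10 days and 18 for the last change of the difference.

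Leaving out each horse in turn, the 4 counts between the fluids ranged, from the earliest time on, from 0 to 1, 10 to 33, 26 to 35 and 0 to 3. In ISF they ranged from 5 to 7, 2 to 3, 0 to 1 and 35 to 46 over the 4 intervals, in SF from 9 to 15, 3 to 13, 0 to 0 and 0 to 1, and for the last change of the difference from 0 to 12. For the 7 genes followed singly, 445 of 504 alternatives left the comparison of the fluids on the same side, 27 brought a call, 12 lost it and 20 moved an uncalled value. CDKN3 rested on as few as 1 read in a library.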
